A study of Mus musculus with 2 samples.

Results

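The AP-1 family was followed through the m6A peaks of mouse uterus by 8 of its genes: Jun, Junb and Jund, Fos, Fosb, Fosl1 and Fosl2, and Atf3. A peak was counted for a gene when its summit lay inside the gene's span in the RefSeq annotation of mm10. The 8 genes held 18 of the 38366 peaks in the authors' list, and are 8 of 21783 protein-coding genes in the annotation. N6-methyladenosine (m6A) was mapped by sequencing RNA fragments bound by an anti-m6A antibody, beside input RNA without antibody. The immunoprecipitated (IP) group was 1 library from the uterus of wild-type mice of the C57BL/6 strain, labelled as gestation day 4 and gestation day 8 tissue mixed equally. The input group was 1 library of whole C57BL/6 uterus with no antibody, and its label states neither a day nor a mixture. The names in the peak list start with D8posIP-Neginput, which mentions no day 4. No number of animals is given in the sources used here. Neither group had a replicate, so no test between them could be made and each value describes this pair of libraries.

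AP-1 is a family of dimeric transcription factors that join through a leucine zipper and bind DNA through the basic region beside it (together called bZIP). Jun proteins can pair with each other or with Fos proteins, while Fos proteins need a Jun partner, and Atf3 is a related stress-induced factor that often acts as a repressor. Several of these genes are immediate early genes, switched on within minutes by growth factors and hormones, and their mRNAs are short-lived. In the rodent uterus Fos and Jun are classical early targets of estrogen. The m6A mark is placed on nascent mRNA by the Mettl3 and Mettl14 methyltransferase, and reader proteins such as Ythdf2 can speed the decay of marked mRNA.

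The tissue label was checked against marker genes. All 5 smooth muscle, 6 stromal, 5 decidual, 5 epithelial and 4 endothelial markers carried a peak, as did all 5 markers of macrophages and natural killer cells, where 55.7% of all protein-coding genes did. Of 5 trophoblast markers 1 did, Hand1, and Prl3d1, Tpbpa, Ascl2 and Elf5 did not. A peak in a marker does not say which cells held the AP-1 transcripts. In bulk tissue, fewer cells of a type and less RNA per cell cannot be told apart, and the peak list holds no expression values.

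All 8 AP-1 genes carried a peak, where 55.7% of all protein-coding genes did. This share was 28.5% among genes under 5 kb, the length class of Jun, Junb, Jund and Fos, and 56.5% among genes of 5 to 25 kb, the class of the other members. All 8 also had a peak of at least 4-fold, against 51.5% of protein-coding genes, and a peak with −log10 q of at least 5, against 53.1%. Fold enrichment is the authors' ratio of IP fragments to local background at the summit, with 1 fragment added to both. The range in parentheses after a fold is its 95% interval from the counting error of IP fragments alone (exact Poisson), taking the background as known. Over the 18 peaks the fold ran from 2.99 in Fosl2 to 12.0 in Jund with a median of 5.86, against 6.16 over all peaks in the list.

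The 3 Jun genes each held 1 long peak. The coding sequence of each Jun gene lies in a single exon, so these genes are compact. Jun, which encodes the founding member c-Jun (NCBI Gene 16476, minus strand, chromosome 4, 95049036 to 95052222), held a peak of 2601 bases at 95049655 to 95052255. It covered 80.6% of the span, and only 1.83% of all peaks reached 2 kb in width. Its summit, 1932 bases after the start of the gene, was covered by 170 IP fragments over a background of 29.0, which is 5.70-fold (4.88 to 6.61). The Jun peak thus combined very deep coverage with a modest ratio: 99.3% of protein-coding genes with a peak had fewer IP fragments at their highest peak, and 23.4% had a lower fold.

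Junb, which encodes a Jun protein with weaker activating capacity than c-Jun (NCBI Gene 16477, minus strand, chromosome 8, 84976909 to 84978748), held a peak of 1658 bases at 84977165 to 84978822. The peak covered 86.1% of the 1840-base span. Its summit lay 509 bases after the start, the earliest relative position of the Jun genes at 27.7% of the span. It had 87 IP fragments over a background of 10.5, or 7.65-fold (6.15 to 9.42).

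Jund, which encodes the Jun protein that is usually present without stimulation (NCBI Gene 16478, plus strand, chromosome 8, 70697739 to 70700616), had the highest deposited fold of the family. Its peak of 1570 bases at 70698880 to 70700449 left the first 1141 bases of the span free and covered 54.6% of it. RefSeq lists 2 transcripts for this gene, and the span runs over both. The summit lay 2022 bases from the start, at 70.3% of the span, with 130 IP fragments over a background of 9.88, or 12.0-fold (10.1 to 14.3). This interval did not overlap those of Junb or Jun, whose backgrounds were 10.5 and 29.0. Jund was the only AP-1 member above the median of 8.04-fold for the highest peak of all 12131 protein-coding genes with a peak. The median was 7.37-fold for genes under 5 kb and 7.56-fold for genes of 5 to 25 kb. Junb, at 7.65-fold, and Fosb and Fosl1, at 7.71-fold and 7.86-fold, also stood above the median of their length class.

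The Fos genes held from 2 to 4 peaks each. Fos, which encodes the inducible partner c-Fos (NCBI Gene 14281, plus strand, chromosome 12, 85473890 to 85477274), had the lowest highest-peak fold of the family. Its first peak, at 85474771 to 85475152, had 46 IP fragments over a background of 12.4, or 3.52-fold (2.60 to 4.67). Its second, at 85475421 to 85476900, had 61 IP fragments over 12.97, or 4.44-fold (3.41 to 5.68), with the summit 651 bases from the end of the gene. The intervals of the 2 Fos peaks overlapped. Of all genes with a peak, 10.9% had a lower highest fold than Fos and 91.8% a lower background at that peak.

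Fosb, which encodes FosB and the shorter, truncated ΔFosB (NCBI Gene 14282, minus strand, chromosome 7, 19302696 to 19310118), held 4 thinly covered peaks of 462, 202, 200 and 359 bases, where the median width of all peaks was 333. From the start of the gene they lay at 19309641 to 19310102 with 10 IP fragments, 19307326 to 19307527 with 8, 19306646 to 19306845 with 7 and 19304649 to 19305007 with 21. Their folds were 7.53 (3.96 to 13.3), 5.56 (2.75 to 10.4), 5.06 (2.41 to 9.76) and 7.71 (4.91 to 11.6). All 4 intervals overlapped, so no order among the Fosb peaks could be read at this depth. The background at the first was 0.462, the genome-wide level the caller uses where the input gives no higher local estimate.

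Fosl1, which encodes Fra-1, a Fos protein without the strong activation domain of c-Fos (NCBI Gene 14283, chromosome 19, 5447698 to 5455938), held 3 peaks. The first, at 5447678 to 5448050, had 17 IP fragments over a background of 1.31, or 7.79-fold (4.72 to 12.2). The other 2 summits also lay inside Ccdc85b, a neighbouring gene, and the peak list carries no strand, so they cannot be assigned. They were at 5454060 to 5454501, with 36 IP fragments and 7.86-fold (5.57 to 10.8), and at 5454732 to 5455850, with 72 IP fragments and 6.02-fold (4.73 to 7.57). A further peak in Ccdc85b alone, 801 bases outside the Fosl1 span, had 132 IP fragments and 9.52-fold (7.98 to 11.3). The Fosl1 peak that belongs to no other annotated gene is therefore only the first.

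Fosl2, which encodes Fra-2 (NCBI Gene 14284, plus strand, chromosome 5, 32136472 to 32157840), held 4 deeply covered peaks that differed among themselves. In order along the gene they lay at 32146691 to 32147144, 32149678 to 32149941, 32150255 to 32150495 and 32152507 to 32154158, all beyond 10219 bases from the start. Their IP fragments were 146, 111, 98 and 146, and their backgrounds 48.2, 16.5, 17.4 and 36.4. The folds were 2.99 (2.53 to 3.51), 6.40 (5.28 to 7.70), 5.39 (4.39 to 6.56) and 3.93 (3.32 to 4.61). The interval of the second peak overlapped neither that of the first nor that of the last. The peaks with the most IP fragments thus had the lowest ratios within Fosl2, and also the highest backgrounds.

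Atf3, the stress-induced repressor (NCBI Gene 11910, minus strand, chromosome 1, 191170296 to 191183333), held 2 peaks of unlike depth. One in the interior of the gene, at 191177256 to 191177552, had 10 IP fragments over a background of 0.618, or 6.80-fold (3.58 to 12.0). The other, at 191170324 to 191171836, was 1513 bases wide and ended 28 bases short of the end of the gene, with its summit 1262 bases from that end. It had 29 IP fragments over 4.32, or 5.64-fold (3.84 to 8.01). The deeper Atf3 peak was the one at the end of the gene, and the 2 intervals overlapped.

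**Figure D1:**
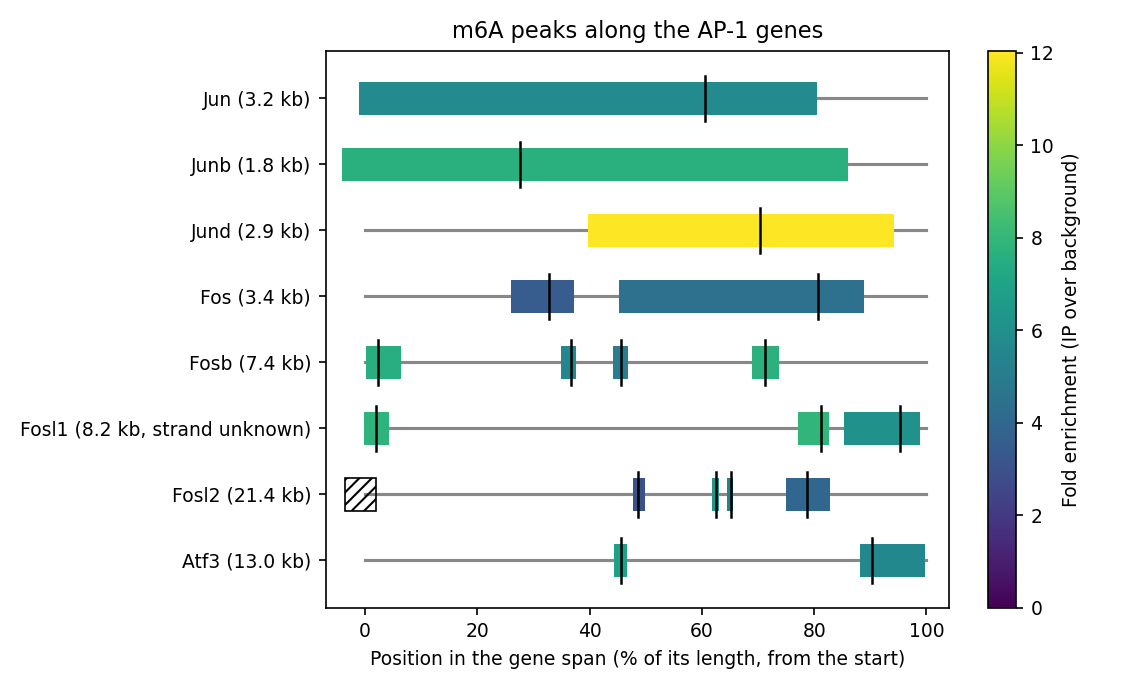
Peaks along the 8 AP-1 genes. The horizontal axis is the position in each gene span in percent of its length, from the start of the gene (for Fosl1, whose strand is not in the table used, from the lower coordinate). Bars are peaks coloured by fold enrichment, black ticks are summits, and the hatched bar is a Fosl2 peak whose summit lies before the start of the gene. Jun and Junb are covered over 80.6% and 86.1% of their spans, while the Fosl2 peaks cover 12.2%.

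The 8 genes differed in how much of the span the peaks covered. Coverage was 86.1% in Junb, 80.6% in Jun, 55.0% in Fos, 54.6% in Jund, 23.2% in Fosl1, 16.5% in Fosb, 13.9% in Atf3 and 12.2% in Fosl2. This order largely follows the lengths of the spans, from 1840 bases in Junb to 21369 in Fosl2. Genes with a peak had a median coverage of 28.1% when under 5 kb and of 6.87% at 5 to 25 kb, with upper quartiles of 50.3% and 12.9%. Fosl2 alone stood below the upper quartile of its length class, and this rests on the summit rule. When peaks overlapping a span by 1 base were counted, a choice made after seeing the data, coverage was 14.2% in Fosl2 against an upper quartile of 12.9%. The place of Fosl1 rests mostly on the peaks whose summits also lie in Ccdc85b. Peaks covered 1914 bases of Fosl1, and the first, in no other gene, was 373 bases wide. Coverage without the shared peaks was not computed. Of the 18 AP-1 peaks 7 were at least 1 kb wide (38.9%), against 10.04% of all peaks. The 7 include the third Fosl1 peak, whose summit also lies in Ccdc85b. The 18 peaks were also deeper, with a median of 53.5 IP fragments against 29 over all peaks. The part of depth in their width was not tested. Of the 7 members with a strand in the table, 5 had their highest summit in the second part of the span, past 50% of its length (71.4%), against 60.8% of the 9693 genes with a peak and a strand. The exceptions were Junb, at 27.7%, and Atf3, at 45.7%, although the deeper Atf3 peak lay at 90.3%. Fosb counted by its 7.71-fold peak at 71.2% of the span, with a 7.53-fold peak at 2.30% and overlapping intervals. For Fosl2 a peak of 8.09-fold lay across the start and was not counted by the summit rule.

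Among the 7 members with a start window, peaks reached the annotated start of transcription in Jun, Junb, Fosb and Fosl2. The start windows of these genes are shown because in each a peak lies across the annotated start. They come from RefSeq sequences on GRCm38.p6, the assembly of mm10, run from 250 bases before the annotated start to 30 bases after it, 5′ to 3′ on the gene's strand, and have the bases inside a peak in capitals. Jun is chr4:95052193-95052472 and Junb chr8:84978719-84978998, both on the minus strand. Fosb is chr7:19310016-19310295 on the minus strand, around a start that lies inside the gene span, and Fosl2 is chr5:32136222-32136501 on the plus strand.
Jun: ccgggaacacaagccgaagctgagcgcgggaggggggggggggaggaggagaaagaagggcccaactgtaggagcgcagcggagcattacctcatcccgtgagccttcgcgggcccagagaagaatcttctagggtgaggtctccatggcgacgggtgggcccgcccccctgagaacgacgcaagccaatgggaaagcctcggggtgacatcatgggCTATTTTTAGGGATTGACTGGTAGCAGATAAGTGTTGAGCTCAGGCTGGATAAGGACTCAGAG
Junb: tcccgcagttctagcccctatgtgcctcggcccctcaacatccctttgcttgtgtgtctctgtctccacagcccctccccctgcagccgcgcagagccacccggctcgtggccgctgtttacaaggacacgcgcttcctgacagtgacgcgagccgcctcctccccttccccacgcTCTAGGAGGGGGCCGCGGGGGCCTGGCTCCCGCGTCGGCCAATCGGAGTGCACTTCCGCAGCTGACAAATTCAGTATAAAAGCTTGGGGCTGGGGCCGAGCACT
Fosb: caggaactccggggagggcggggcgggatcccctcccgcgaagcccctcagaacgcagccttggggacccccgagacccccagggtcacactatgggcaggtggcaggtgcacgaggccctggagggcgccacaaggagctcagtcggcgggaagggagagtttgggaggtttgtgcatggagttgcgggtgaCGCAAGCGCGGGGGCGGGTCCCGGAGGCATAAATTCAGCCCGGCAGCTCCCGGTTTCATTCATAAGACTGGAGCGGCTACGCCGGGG
Fosl2: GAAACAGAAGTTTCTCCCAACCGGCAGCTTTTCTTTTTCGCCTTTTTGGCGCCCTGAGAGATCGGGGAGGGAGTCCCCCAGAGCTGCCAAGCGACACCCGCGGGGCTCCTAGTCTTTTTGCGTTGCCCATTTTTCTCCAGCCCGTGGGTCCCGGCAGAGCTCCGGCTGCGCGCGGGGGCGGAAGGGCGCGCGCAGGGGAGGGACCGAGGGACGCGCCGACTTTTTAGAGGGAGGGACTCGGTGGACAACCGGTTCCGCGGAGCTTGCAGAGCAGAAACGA

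The peak of Jun reached 33 bases before the annotated start, that of Junb 74 bases and the first peak of Fosb 57 bases before the start in its window. This Fosb peak lay wholly inside the gene span, with its nearer edge 16 bases from the start of the span. The Fosl2 window lay wholly inside a peak of 1165 bases at 32135726 to 32136890, whose summit lay 393 bases before the start of the gene and in no annotated gene. By the summit rule this peak does not count for Fosl2, although 36.0% of it lay in the span. It had 93 IP fragments over a background of 10.6, or 8.09-fold (6.54 to 9.89), higher than each of the 4 peaks counted for the gene. Its interval overlapped those of the counted peaks at 6.40-fold and 5.39-fold and not those of the peaks at 2.99-fold and 3.93-fold. Without strand, this peak cannot be assigned to Fosl2 or to another transcript. RefSeq windows were found for 7 of the 8 members, all but Fosl1, and those of Fos, Jund and Atf3 held no part of a peak. The first Fosl1 peak ran 20 bases past the lower end of its span. Without a strand, that end could not be called start or end. Each gene had 1 window, so any other starts of Jund and Fosb, with 2 and 3 transcripts, were not examined.

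The windows were searched for short motifs, which describe letters and not binding or methylation. The core GGACT of the m6A consensus, read on the gene's strand, was found in Jun 20 bases after the start and inside the peak, and in Fosl2 17 bases before the start. It occurs in 24.1% of all 32851 windows of this length. The looser form GGACN, which includes it, was found in 62.4% of all windows and in each AP-1 window except that of Jund. It occurred 4 times in the Fosl2 window. With the cut-off set at that count, 3.11% of all windows hold at least 4. G and C made up 63.9% of the Fosl2 window, against a median of 52.5% over all windows. Their part in this count was not tested. The Jun-type AP-1 element TGACATCA, through which Jun is known to regulate its own gene, lay 45 bases before the start of Jun, upstream of the peak. On either strand it occurs in 3.54% of windows. The canonical AP-1 element TGACTCA and the cyclic AMP response element TGACGTCA, found on either strand in 4.94% and 1.74% of windows, were in none of the 7 AP-1 windows. A TATA box (TATAAA, either strand, 13.1% of windows) lay 33 bases before the start of Fos and at the first annotated base of Junb. In Junb the peak therefore covered the TATA box and the 74 bases before it.

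**Figure D2:**
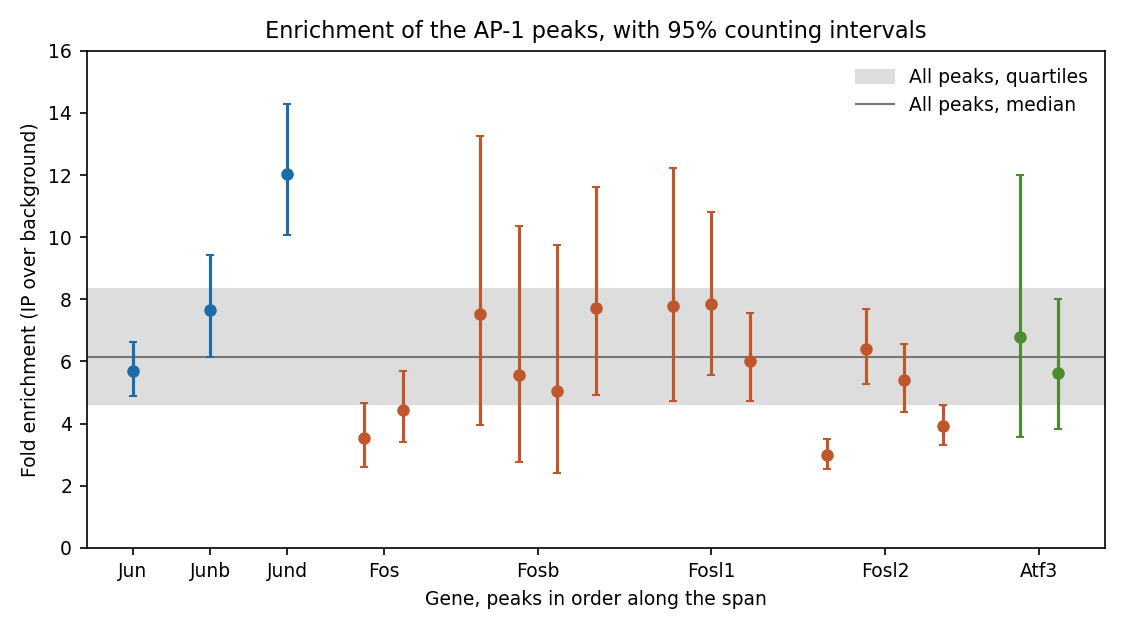
Fold enrichment of the 18 AP-1 peaks. The vertical axis is the authors' ratio of IP to background at the summit, points are peaks in order along each gene, and bars are 95% intervals for counting error. The grey band and line are the quartiles (4.62 and 8.32) and the median (6.16) of all peaks. Jund stands above the band, and both Fos peaks and 2 Fosl2 peaks, at 2.99 and 3.93, lie below it.

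Ordered by the highest peak, the 8 genes ran from Jund at 12.0-fold through Fosl1 at 7.86, Fosb at 7.71, Junb at 7.65, Atf3 at 6.80, Fosl2 at 6.40 and Jun at 5.70 to Fos at 4.44. Each pair of neighbours in this order had overlapping intervals, which does not show that their folds were alike. Those of Jund and Fosl1 shared only the stretch from 10.1 to 10.8. The Fosl1 value there is from a peak whose summit also lies in Ccdc85b. The first Fosl1 peak, in no other gene, stood at 7.79-fold (4.72 to 12.2). The interval of Jund did not overlap those of 4 members, Junb, Fosl2, Jun and Fos, and that of Fos did not overlap those of Jund and Junb. The median over the 8 genes was 7.23-fold, against 8.04-fold over all protein-coding genes with a peak (quartiles 5.85 and 10.9). In the length classes of the 8 genes it was 7.37-fold under 5 kb and 7.56-fold at 5 to 25 kb. Without the fragment that is added to both terms, the highest folds were 21.7 in Fosb, 16.2 in Atf3, 13.2 in Jund and 12.98 in Fosl1. They were 8.29 in Junb, 6.73 in Fosl2, 5.86 in Jun and 4.70 in Fos. On that scale Jund was no longer first, and the last 4 places went to Junb, Fosl2, Jun and Fos. The values of Fosb and Atf3 there rest on 10 IP fragments each, over backgrounds of 0.462 and 0.618. No intervals were computed on that scale, so its order is uncertain. The median was then 10.6 against 12.0 over all genes with a peak, and 4 members, Fosb, Atf3, Jund and Fosl1, stood above 12.0. For genes under 5 kb and of 5 to 25 kb the medians on that scale were 9.92 and 10.8.

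The number of fragments behind these values varied widely among the AP-1 genes. At the highest peak, IP fragments were 170 in Jun, 130 in Jund, 111 in Fosl2, 87 in Junb, 61 in Fos, 36 in Fosl1, 21 in Fosb and 10 in Atf3. The median over all genes with a peak was 35, so 6 of the 8 stood above it. The background was 29.0 in Jun, 16.5 in Fosl2, 12.97 in Fos, 10.5 in Junb, 9.88 in Jund, 3.71 in Fosl1, 1.85 in Fosb and 0.618 in Atf3. Here too 6 of 8 exceeded the median, which was 3.09. In both counts Fosl1 passed through a peak whose summit also lies in Ccdc85b. The first Fosl1 peak, in no other gene, had 17 IP fragments over a background of 1.31, below both medians. Background is the denominator of the fold and is drawn from the input around the summit, so it is not an expression level per length. Its part in the low folds of Fos, Jun and Fosl2 was not tested.

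**Figure D3:**
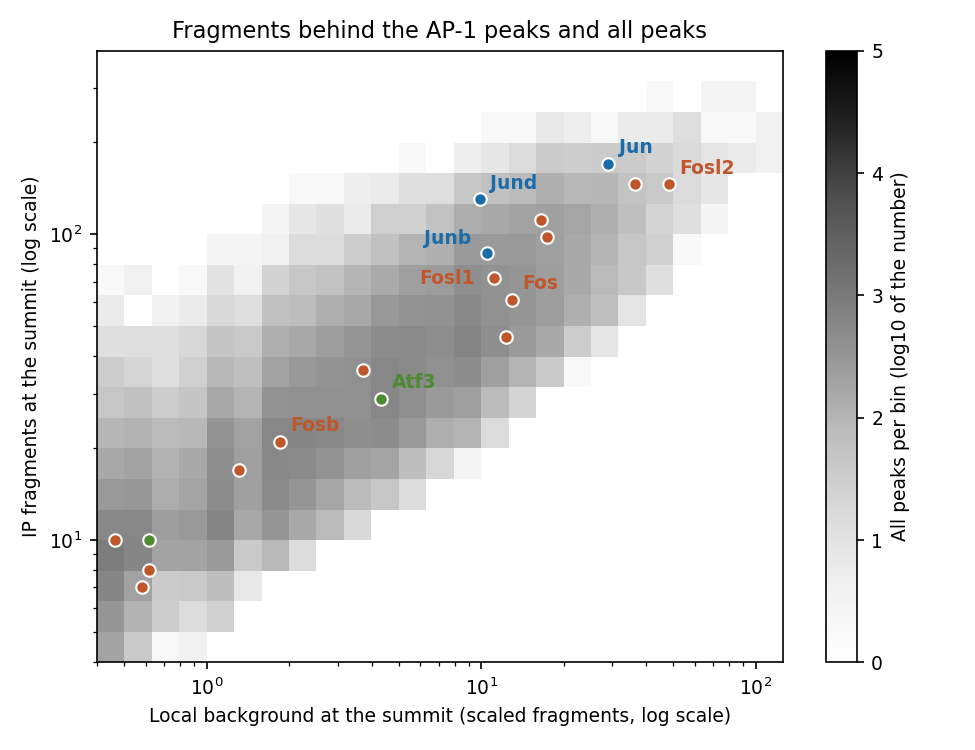
IP fragments against local background at the summits of the AP-1 peaks and of all 38366 peaks. Both axes are logarithmic and in fragments. The grey scale is the log10 of the number of peaks per bin. Blue points are Jun genes, orange points Fos genes and green points Atf3, with the name at the peak of each gene that has the most IP fragments. Jun and Fosl2 lie at the deep end with 170 and 146 IP fragments, and the first 3 Fosb peaks lie at the shallow end with 7 to 10.

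Of 20 genes for other bZIP proteins that pair with or resemble AP-1, 19 carried a peak, all but Batf3, where 55.7% of all protein-coding genes did. Their median highest fold was 9.43, beside 8.04 over all genes with a peak. Among the higher values, Nfe2l2, which encodes the regulator of the antioxidant response, reached 15.7-fold (12.9 to 19.0). Jdp2, which encodes a repressor that dimerizes with Jun, reached 13.4-fold (11.2 to 15.8).

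Upstream of AP-1, 19 of 25 MAP kinases, their activating kinases and Dusp phosphatases carried a peak (76.0%, against 55.7% of all protein-coding genes). Their median was 7.89-fold, beside 8.04 over all genes with a peak. Among the higher values were those of the kinase genes Mapk7, at 17.7-fold (14.1 to 21.9), and Mapk14, which encodes p38α, at 11.3-fold (7.48 to 16.5). The serum response factor and its cofactors, which act on serum response elements such as that of Fos, carried a peak in 6 of 6 genes with a median of 9.87-fold. Srf itself reached 16.5-fold (12.2 to 21.9), the ternary complex factor Elk3 11.0-fold and the coactivator Mrtfb 10.4-fold. These are values of the transcripts that encode these regulators, set beside 4.44-fold in Fos.

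Of 27 other immediate early genes 25 carried a peak, all but Egr3 and Egr4 (92.6%, against 55.7% of all protein-coding genes). All 25 reached 4-fold, as did 11222 of the 12131 protein-coding genes with a peak. Their median was 9.23-fold, and the highest were the Kruppel-like factor gene Klf2 at 23.8-fold (17.9 to 30.95), Ier5l at 23.6-fold (18.7 to 29.4) and the NF-kappaB inhibitor gene Nfkbia at 20.4-fold (16.2 to 25.5). Among genes for the turnover of early mRNAs and for reading m6A, 16 of 18 carried a peak, all but Ythdc2 and Elavl1 (88.9%, against the same 55.7%), with a median of 7.995-fold. They were led by Hnrnpd, which encodes the AU-rich element binding protein AUF1, at 25.3-fold (20.5 to 30.9). Next came Ythdf3 at 21.6-fold and Ythdc1 at 20.6-fold, which encode a cytoplasmic and a nuclear reader. Maff, Btg2, Zfp36 and Zfp36l1 stand in 2 of these lists.

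Of 30 known target genes of AP-1, 20 carried a peak (66.7%, against 55.7% of all protein-coding genes). Their median of 6.29-fold was below the 8.04 over all genes with a peak. The highest were the growth factor gene Hbegf at 10.7-fold (6.29 to 17.2) on 15 IP fragments, the cyclin gene Ccnd1 at 9.11-fold (6.02 to 13.3) and the gelatinase gene Mmp2 at 8.76-fold (6.77 to 11.1). A transcript without a peak may be unmethylated, absent or too thinly covered, which cannot be told apart here. These lists differ in gene length and depth, and none was tested against another.

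**Figure D4:**
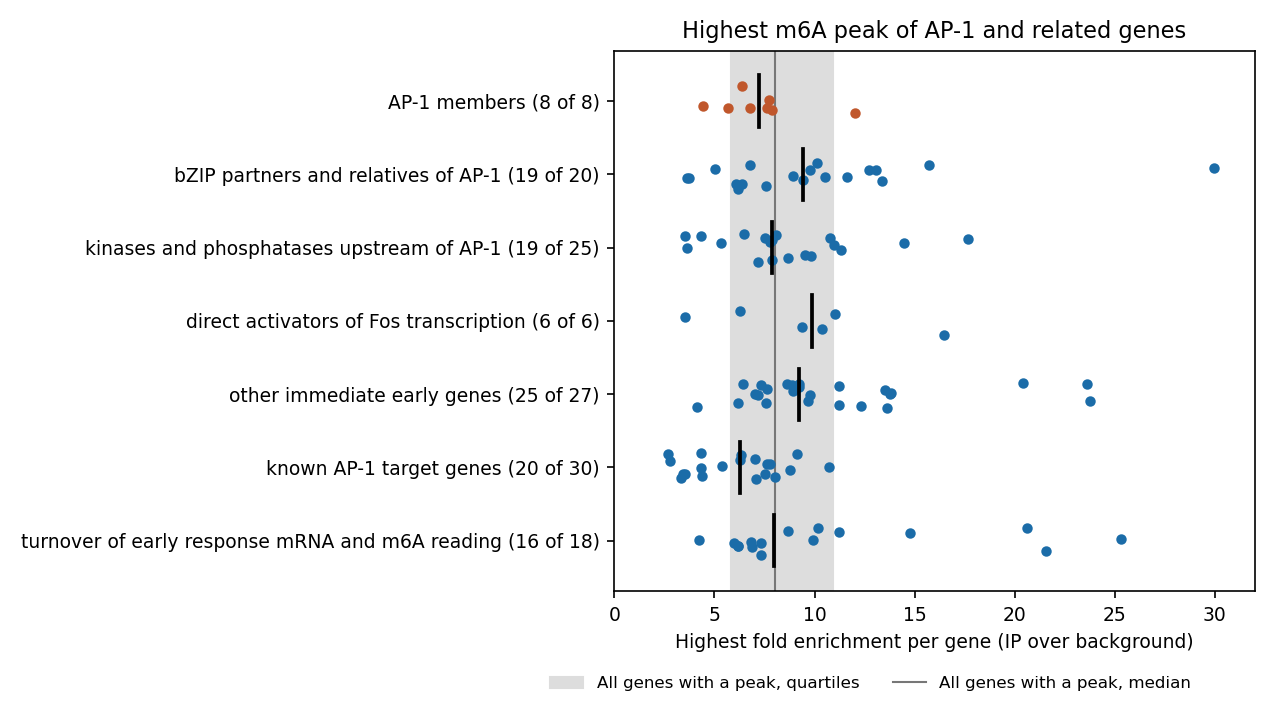
Highest fold enrichment per gene in the AP-1 family and 6 related lists. Each point is a gene with a peak, spread vertically only for visibility, black bars are medians, and the number of genes with a peak of those listed follows each name. The grey band and line are the quartiles and median of all 12131 protein-coding genes with a peak. The AP-1 median of 7.23 lies inside the band, and of the 8 genes Jund lies above it and Fos and Jun lie below it.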

How the data were processed

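Libraries were prepared from TRIzol total RNA with a strand-keeping kit, per the labels' protocols. The submitters' processing notes name the build mm10 and the tools HISAT2 (version 2.2.1) and MACS3 (version 3.0.0a7). For their settings, duplicates and depth, nothing is given in the sources used here. The deposited list gives, per peak, the authors' fold enrichment (a ratio), −log10 p-value, −log10 q-value, a display score that was not used, and the summit.

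IP fragments (k) and background were recovered from the deposited fold, read as (k + 1)/(background + 1), and the Poisson p-value. A pair matched the deposited −log10 p within 0.001 for 100% of peaks. For 28 peaks 2 values of k matched, and the larger was taken. The recovery was tested on data simulated with the same formulas, which checks the inversion and not this reading of the deposited values. Positions are counted from 1. Gene spans were those of RefSeq on GRCm38.p6, and 369 rows on scaffolds or without a position were left out. Exons were not used, and strand came from the start windows. The named genes were all 8 members and, in each other list, the 3 with the highest fold and those lacking a peak where at most 3, except items that are not reported here. Members and lists were chosen with earlier results of these data known. Because groups had 1 library each, counts and medians are descriptions beside those over all genes. The software was scipy 1.17.1, pandas 2.3.3 and numpy 2.4.6 under Python 3.11.15, with matplotlib 3.10.9 for figures.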

Additional observations from a re-analysis of the deposited data

How the results depend on the processing

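Of 99 values recomputed under the alternative settings, 89 counted as unchanged and 10 moved. A fold had to stay within its counting interval, a count or coverage within 1.5 times, and a summit position identical. The median highest fold was set against 5.09 to 10.1, the medians of the members' lower and upper limits. Many values could not move. A 4-fold filter keeps each member's highest peak, and 3 members hold only 1 peak. The 89 therefore does not measure robustness. The count of 8 genes with a peak was the same under each of the 6 settings that bear on it. The number of peaks was 17 with −log10 q of at least 5, 15 with a fold of at least 4, 16 without summits in more than 1 gene and 19 when overlap by 1 base was enough. Dropping the added fragment moved the median highest fold from 7.23 to 10.6. It moved the highest fold of Fosb to 21.7, of Fosl1 to 12.98 and of Atf3 to 16.2, at peaks with 10, 17 and 10 IP fragments. Counting peaks that overlap the span by 1 base moved Fosl2 to 8.09-fold and, as an alternative added after seeing the data, its coverage from 12.2% to 14.2%. Taking the peak with the most IP fragments in place of the highest fold moved the summit that stands for a gene in 3 members: Fosl1 (from 6692 to 7849 bases), Fosl2 (from 13365 to 10409) and Atf3 (from 5956 to 11775). With the highest −log10 q, Fosl1 and Atf3 moved in the same way. No paired analysis was possible because each group held 1 library. Depth limits Fosb and Atf3 most, at 7 to 29 IP fragments per peak.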

Other observations

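Outside their spans but within 10 kb of any of the 8 AP-1 genes, 5 further summits were found. No such count was made for other genes. Besides those beside Fosl1 and Fosl2, 2 lay in Prdx2, an antioxidant enzyme gene downstream of Junb. The nearer, 2791 bases after the end of Junb, had 81 IP fragments over a background of 48.8 and only 1.65-fold enrichment (1.31 to 2.04), against 87 fragments and 7.65-fold in Junb. The other Prdx2 summit stood at 3.60-fold (2.55 to 4.95). The fifth lay 9884 bases after the end of Jun in no annotated gene, at 7.53-fold (3.96 to 13.3) from 10 IP fragments over the genome-wide background of 0.462.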
